A study of Mus musculus with 6 samples.

Results

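The genes described here are p53 itself (Trp53) and 9 genes tied directly to it, chosen by name in mouse pro-B cells before and after tamoxifen. A gene was measured where the array's gene table gave a probe set that symbol and no other, and the brightest probe set stood for the gene. This found 8 of the 10 genes (Mdm2, Ccng1, Phlda3, Zmat3, Aen, Eda2r, Trp53inp1 and Cdkn2a), out of 19937 genes measured in all, and each of the 8 had 1 probe set. Trp53 is not listed in the table, and Cdkn1a, which encodes the cyclin-dependent kinase inhibitor p21, is listed only on a probe set shared with another symbol, so neither has a value here.

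Total RNA was taken from 6 samples of pro-B cells of a C57/BL6 background that had been transformed with the v-Abl oncogene, an Abelson virus kinase that holds cells at an early B cell stage. All 6 had the genotype Foxo1f/f; ERCre, meaning Foxo1 alleles flanked by loxP sites and a Cre recombinase that is joined to an oestrogen receptor. The 3 untreated samples are labelled as untreated, with no dose or time given. The 3 tamoxifen samples received 1 µM tamoxifen for 2 days, which moves Cre into the nucleus to delete Foxo1. What drives ERCre, how many transformed clones the samples represent and whether p53 is intact in the line are not given in the sources used here. Tamoxifen-treated cells without loxP sites or without Cre were not analysed here, so tamoxifen, Cre activity and loss of Foxo1 cannot be told apart in this comparison. Separate cultures are not named in the labels, and the p-values may therefore reflect technical spread only.

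p53 is a transcription factor that is held at a low level by the ubiquitin ligase Mdm2 and is stabilised when DNA is broken, including by a recombinase that cuts the genome. Once stable, it switches on genes that stop the cell cycle, such as Cdkn1a, genes that promote cell death, and Mdm2 itself, which closes a feedback loop. The Arf product of Cdkn2a blocks Mdm2, and Abelson-transformed lines are known for losing either Arf or p53 function as they become established. The question put to these genes was whether tamoxifen treatment came with a p53 response of the kind that Cre-induced DNA damage can give.

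The p53 site is shown first because p53 acts on its direct targets through it. The consensus p53 half-site is 10 bases long, and p53 binds to a pair of them separated by up to 13 bases. Promoter windows of 300 bases (250 before to 50 after an annotated start, from RefSeq, build GRCm38.p6) were found for 8 of the 10 genes, Zmat3 and Trp53inp1 being the others. They were searched for the half-site, which reads alike on both strands, and for a pair with at most 1 mismatch. Stretches around the matches are printed 5′ to 3′ on the gene's strand, with matching half-sites in capitals, and for Ccng1 the whole pair, whose upstream half-site carries the mismatch.
Ccng1 (chr11:40755457-40755486, minus strand): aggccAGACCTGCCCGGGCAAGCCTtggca
Cdkn1a (chr17:29090906-29090937, plus strand): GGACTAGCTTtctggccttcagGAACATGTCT
Mdm2 (chr10:117710925-117710954, minus strand): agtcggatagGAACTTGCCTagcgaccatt
Aen (chr7:78895927-78895956, plus strand): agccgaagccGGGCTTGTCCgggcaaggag
Trp53 (chr11:69580274-69580303, plus strand): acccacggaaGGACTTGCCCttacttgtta

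Of the 8 genes with a window, 5 held at least 1 half-site, where 9.55% of all 27025 genes with a window did. Ccng1 and Cdkn1a also held a pair. That of Cdkn1a, with 12 bases between its half-sites, matched with no mismatch, as in 0.0731% of 32851 windows. A second Cdkn1a window, at another annotated start, held 0 half-sites, with 5 mismatches in its best pair. The pair of Ccng1, with no bases between its half-sites, had 1 mismatch. A pair with at most 1 mismatch was found in 1.09% of windows. The Ccng1 pair began 195 bases before the annotated start, and the Mdm2 half-site 186 bases before. The best pair in the Mdm2 window had 4 mismatches, as in Phlda3 and Eda2r, which held no half-site. The best pairs of Aen and Trp53 had 2 and 3. Sequence outside the windows was not searched. The Aen half-site lay 121 bases before one annotated start and just after another. Phlda3, Cdkn2a and Eda2r held no half-site in these windows. A match here is a description of letters, and binding was not measured.

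The upstream stretches of Ccng1 and Mdm2 are given at length because these were the members whose groups did not overlap in the arrays. Both are the 250 bases before the start, with capitals as before. Whether the sites bear on the array values was not tested.
Ccng1 upstream (chr11:40755287-40755536, minus strand): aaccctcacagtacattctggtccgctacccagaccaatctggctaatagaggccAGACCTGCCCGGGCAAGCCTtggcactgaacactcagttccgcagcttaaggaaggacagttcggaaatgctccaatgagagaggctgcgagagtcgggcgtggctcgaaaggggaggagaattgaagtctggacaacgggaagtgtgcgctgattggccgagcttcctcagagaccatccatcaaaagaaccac
Mdm2 upstream (chr10:117710759-117711008, minus strand): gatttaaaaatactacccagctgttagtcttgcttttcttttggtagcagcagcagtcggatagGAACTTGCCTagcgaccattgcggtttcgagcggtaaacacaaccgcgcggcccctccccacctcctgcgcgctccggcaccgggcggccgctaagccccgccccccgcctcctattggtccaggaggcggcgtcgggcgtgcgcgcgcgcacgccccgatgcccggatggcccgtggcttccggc

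The arrays were alike in scale, with medians between 100.9 and 109.1, lower quartiles from 43.3 to 47.3 and correlations between any 2 arrays of 0.984 to 0.994 over all probe sets on the log2 scale. Foxo1, the targeted gene, had intensities of 806, 624 and 512 in the untreated and 116, 151 and 134 in the tamoxifen samples. With limma on normalised values its log2 fold change was -2.13 (adjusted p = 0.0178). Leaving out untreated 2, untreated 3 or any 1 of the tamoxifen samples ended that call (limma adjusted p from 0.0843 to 0.156) with the fold change between -2.26 and -2.03. The labels do not say whether its probe set lies in the deleted part. Of 12 genes that define pro-B cells, 11 were measured, and 0 passed limma over all probe sets. Those named here were picked from that list after their values were seen. The surrogate light chain genes Igll1 and Vpreb1 were bright (3449 and 3038 in untreated cells), whereas the recombinase genes Rag1 and Rag2, at 68.7 and 46.3, were dim. An unadjusted p under 0.05 was seen for 5 upward and 2 downward, where 2.97% and 2.14% of all probe sets did. Upward were the B cell receptor chain genes Cd79b (0.52) and Cd79a (0.32), Pax5 (0.38), Igll1 (0.26) and Vpreb1 (0.19). Downward were the B lineage factor Ebf1 (-0.51) and the polymerase gene Dntt (-1.26). In all 7 the groups did not overlap, where tamoxifen lay above in 5.03% of all probe sets. Their part in the values of the p53 group was not tested. Among 27 measured markers of T, myeloid, stromal and erythroid cells, 0 passed the test and 0 had an unadjusted p under 0.05.

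No member of the p53 group passed the test, and the highest ratios were those of Trp53inp1, Mdm2 and Ccng1. Mdm2 was 1.22-fold, Ccng1 1.19-fold and Trp53inp1 1.37-fold in tamoxifen over untreated cells, and the other 5 members lay between 0.940 and 1.07-fold. With limma on quantile-normalised log2(intensity + 16) and Benjamini-Hochberg adjustment over 34760 probe sets, 0 of 8 members passed an adjusted p of 0.05, where 0.0575% of all probe sets did. An unadjusted p under 0.05 was seen for 2 of 8 members, both upward, against 2.97% of all probe sets upward. All 3 normalised tamoxifen values lay above all 3 untreated values for the same 2 members, Mdm2 and Ccng1, against 5.03% of probe sets. Over the 8, 6 log2 fold changes were positive, of which those of Aen and Eda2r were near 0 and changed sign under other settings, beside 44.5% positive over all genes. The median was 0.05, beside -0.01 over all genes. With dim probe sets dropped it was 0.26, beside -0.009 over all probe sets kept. That rise came from leaving out Phlda3, Zmat3 and Eda2r, which left 5 members. In cultures measured in bulk, a change in the share of expressing cells and one in RNA per cell cannot be told apart.

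**Figure D1:**
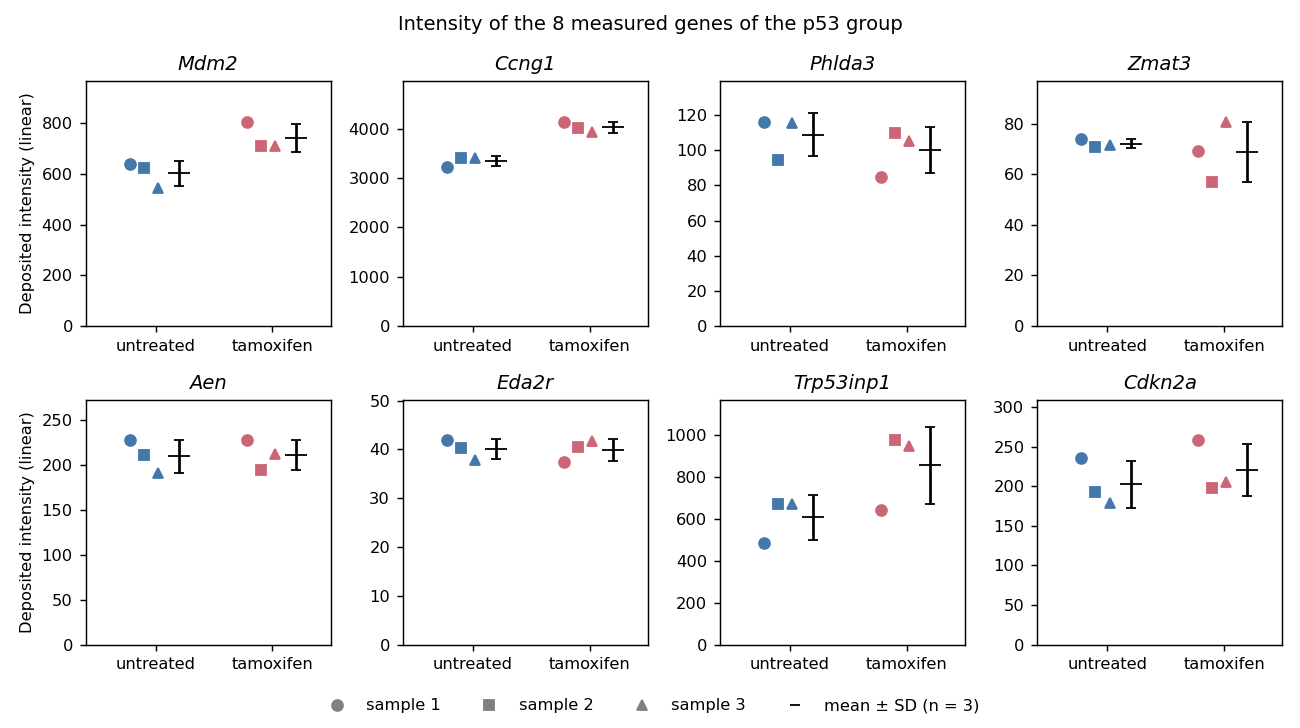
Deposited linear intensity of each measured gene of the p53 group by treatment, 1 panel a gene with its own axis from 0, points for samples 1 (circle), 2 (square) and 3 (triangle) and black marks for the mean ± SD of 3. The 3 tamoxifen points lie above the 3 untreated points for Mdm2 and Ccng1, while the groups overlap in the other 6 panels.

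Mdm2 is the ligase that marks p53 for destruction and is itself a p53 target. Untreated samples 1, 2 and 3 had intensities of 638, 623 and 544, and tamoxifen samples 1, 2 and 3 had 805, 710 and 710. Every tamoxifen value was above every untreated value, with the highest in tamoxifen 1 and the lowest in untreated 3. The means of the deposited intensities were 602 ± 50.4 and 742 ± 55.0 (SD, n = 3). On the normalised log2 scale the difference was 0.28 ± 0.06 (SE), and the limma adjusted p was 0.377 (unadjusted 0.00244). The 95% interval of the difference ran from 1.10 to 1.34-fold, before any allowance for the number of genes tested.

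Ccng1, cyclin G1, recruits a phosphatase that acts on Mdm2 and is a well known p53 target. It measured 3218, 3401 and 3397 in the untreated and 4135, 4005 and 3926 in the tamoxifen samples. The groups did not overlap, and the gap between them was wider than the spread inside either. The means of the deposited intensities were 3339 ± 105 and 4022 ± 106 (SD, n = 3). On the normalised log2 scale the difference was 0.26 ± 0.06 (SE), and the limma adjusted p was 0.52 (unadjusted 0.00535). The 95% interval was 1.08 to 1.32-fold. Mdm2 and Ccng1 had the smallest spread of the 8 members, with a pooled SD within groups of 0.04 and 0.05 on the log2 scale, where the median over all genes was 0.10.

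Trp53inp1 encodes a nuclear and autophagy-linked protein that promotes p53-dependent cell death. Its intensity was 484, 672 and 670 in the untreated and 643, 976 and 949 in the tamoxifen samples. Sample 1 was the lowest in each group, and tamoxifen 1 lay below untreated 2 and 3, so the groups overlapped. The log2 fold change of 0.45 ± 0.24 (SE) was the largest of the members, yet its 95% interval, 0.925 to 2.03-fold, was the widest. Its limma adjusted p was 0.999 (unadjusted 0.0987), and the unadjusted value fell under 0.05 in some alternative settings. The fold change was 0.28 without untreated 1 and 0.69 without tamoxifen 1 (log2), and the pooled SD of 0.36 exceeded that of the other 7 members.

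Cdkn2a encodes both the kinase inhibitor p16Ink4a and the Mdm2 inhibitor p19Arf, and its probe set is annotated to the transcripts of both, so the products cannot be told apart. It measured 236, 193 and 179 in the untreated and 258, 198 and 206 in the tamoxifen samples, with sample 1 the highest in each group and the groups overlapping. These intensities lay above the median of every array, although the deposited values carry no detection call. The log2 fold change was 0.10 ± 0.13 (SE) with a 95% interval of 0.870 to 1.32-fold and a limma adjusted p = 0.999. Leaving out 1 array moved it to between 0.0069 (without tamoxifen 1) and 0.21 (without untreated 1).

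The remaining members showed no separation of the groups. Aen, a nuclease that cuts DNA and RNA in p53-driven apoptosis, measured 227, 211 and 191 in the untreated and 227, 194 and 212 in the tamoxifen samples. Its normalised log2 difference was 0.00 ± 0.08 (SE), with a 95% interval of 0.870 to 1.15-fold. Phlda3, a small protein that competes with Akt for membrane lipid, measured 116, 94.5 and 116 in the untreated and 84.9, 110 and 105 in the tamoxifen samples. Its log2 fold change was -0.09 ± 0.10 (SE), with a 95% interval of 0.794 to 1.11-fold, and the lowest value was in tamoxifen 1. Leaving out 1 array moved it to between -0.17 (without untreated 2) and -0.018 (without tamoxifen 1).

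Zmat3, a zinc finger protein that binds RNA, measured 74.1, 70.9 and 71.3 in the untreated and 69.1, 56.9 and 80.7 in the tamoxifen samples. The untreated samples were close together, and the tamoxifen samples spread to both sides of them, with a 95% interval of 0.800 to 1.17-fold. Eda2r, a receptor of the TNF family that binds ectodysplasin A2, measured 41.9, 40.4 and 37.9 in the untreated and 37.5, 40.6 and 41.8 in the tamoxifen samples. Its means of 40.0 and 39.9 lay below the lower quartile of every array, where a change in a gene near background may not register. Its interval of 0.899 to 1.12-fold therefore bounds the signal of the probe set and not the transcript.

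**Figure D2:**
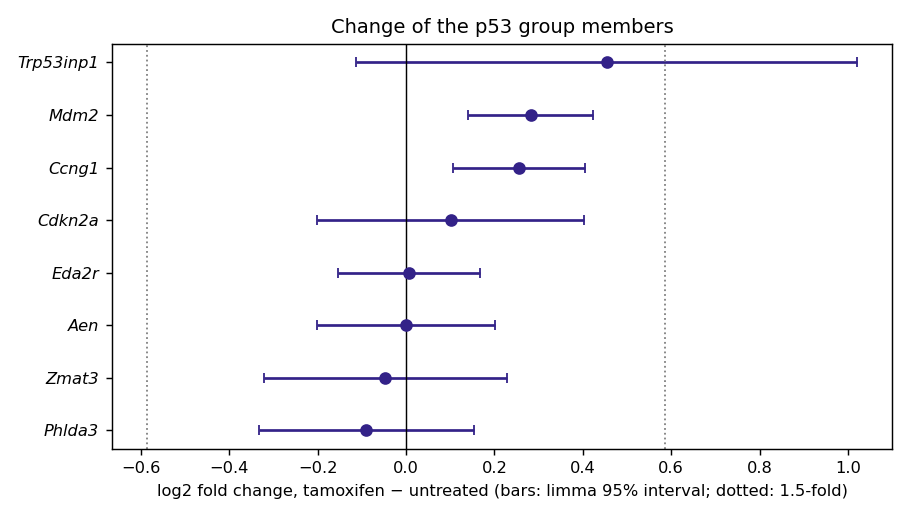
Log2 fold change (tamoxifen minus untreated, log2(intensity + 16) scale) of each measured member with its limma 95% interval, with dotted lines at 1.5-fold. The intervals of Mdm2 and Ccng1 lie to the right of 0, and those of all members except Trp53inp1 end below 1.5-fold.

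Of the 8 intervals, 2 did not include 0, those of Mdm2 and Ccng1. In 7 of 8 the upper end was below a 1.5-fold rise, with Trp53inp1 as the exception. Fold changes on the log2(intensity + 16) scale understate changes of dim genes, which bears on Zmat3 and Eda2r most.

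Other targets of p53 were of mixed direction. The 3 lists of further targets, of cell cycle arrest and feedback, cell death, and DNA repair and metabolism, held 44 genes, of which 40 were measured. With limma 0 of 40 passed over all probe sets, and 2 upward and 2 downward had an unadjusted p under 0.05, where 2.97% and 2.14% of all probe sets did. Of the 40, 17 log2 fold changes were positive and 23 negative, with a median of -0.04. All 3 normalised tamoxifen values lay above all 3 untreated values for 6 of the 40, against 5.03% of all probe sets. They lay below for 2 of the 40. Over all 19937 genes, 1108 lay above and 1132 below.

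Among 14 arrest and feedback targets the median was -0.02, and the 2 with an unadjusted p under 0.05 were Btg2 and Ccng2. Btg2, an antiproliferative gene that is also an early-response gene, measured 271, 205 and 175 in the untreated and 499, 297 and 328 in the tamoxifen samples. All tamoxifen values were above the untreated ones, and tamoxifen 1 stood highest, with a log2 fold change of 0.72 ± 0.20 (SE) and a limma adjusted p = 0.683. Ccng2, the relative of Ccng1 and also known as a target of FOXO factors, measured 275, 477 and 339 in the untreated and 550, 493 and 476 in the tamoxifen samples. Its highest untreated and lowest tamoxifen values were nearly level, and its log2 fold change was 0.47 ± 0.17 (SE), with limma giving an adjusted p = 0.896. It was 0.28 without untreated 1 and 0.64 without untreated 2.

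Gadd45a, a stress sensor that binds PCNA, was close to flat at 0.06, with means of 318 ± 2.60 and 340 ± 1.94 (SD, n = 3). Its deposited values did not overlap, but its quantile-normalised values did. The sestrins Sesn1 and Sesn2, which restrain mTOR under stress, had log2 fold changes of -0.16 and -0.11, Ppm1d, the phosphatase that switches p53 signalling off, -0.04, and the kinase gene Plk2 -0.04. Plk2 was dim, with means of 36.0 and 34.3.

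Among 13 measured cell death targets the median was -0.04, and 0 had an unadjusted p under 0.05. The BH3-only genes Bbc3 (Puma) and Pmaip1 (Noxa) had log2 fold changes of 0.01 ± 0.09 and -0.23 ± 0.11 (SE). Pmaip1 measured 150, 189 and 199 in the untreated and 136, 161 and 153 in the tamoxifen samples, with overlapping groups. The death receptor gene Fas (-0.04) was dim at 38.2 and 36.2, Perp, a membrane protein of desmosomes and apoptosis, had -0.06, and Ei24, an endoplasmic reticulum protein, 0.14. Bax is not listed in the table used here.

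Among 13 measured repair and metabolism targets the median was -0.04. The damage recognition genes Ddb2 and Xpc had log2 fold changes of 0.20 ± 0.13 and -0.07 ± 0.08 (SE), the translesion polymerase gene Polk 0.04 and Rrm2b, a ribonucleotide reductase subunit induced by p53, -0.13. The 2 genes of this list with an unadjusted p under 0.05, named after their values were seen, were lower in tamoxifen cells. These were Ephx1, an epoxide hydrolase (-0.44 ± 0.09 SE, limma adjusted p = 0.365), and Ninj1, a membrane protein of cell rupture (-0.22, limma adjusted p = 0.927).

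**Figure D3:**
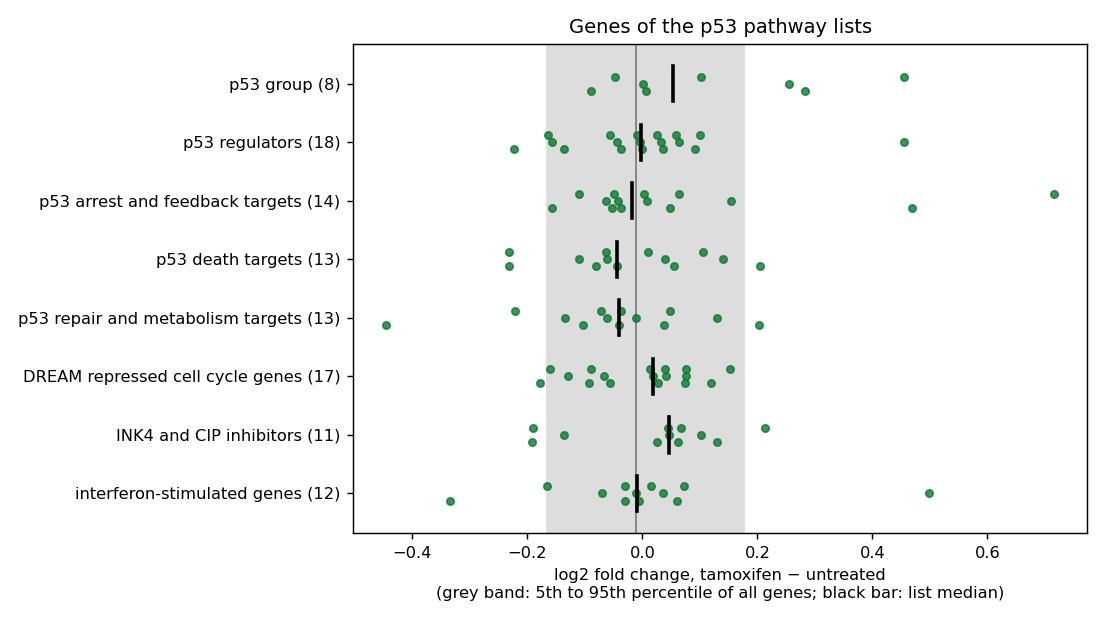
Log2 fold change of each measured gene (points) in the p53 group and 7 related lists, with the number measured in brackets, a black bar at each median and a grey band from the 5th to the 95th percentile of all genes (-0.17 to 0.18). List medians lie between -0.04 and 0.05, and Btg2 (0.72) and Ephx1 (-0.44) are the points farthest to the right and left.

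Genes that act on p53 were mostly level. Of 18 measured regulators, 8 were positive and 10 negative with a median of -0.0027, and with limma 0 passed. Mdm4, the partner of Mdm2 that masks p53, had a log2 fold change of -0.01 ± 0.12 (SE), the damage kinase gene Atm -0.14 ± 0.16 (SE), its effector kinase gene Chek2 0.03 and the p53 relative Trp73 0.09. The only regulator with an unadjusted p under 0.05, named after its value was seen, was Rchy1 (Pirh2), another ubiquitin ligase for p53 and a p53 target. It measured 204, 181 and 142 in the untreated and 271, 228 and 239 in the tamoxifen samples, without overlap, at a log2 fold change of 0.46 ± 0.13 (SE), and its limma adjusted p was 0.698.

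Genes that p53 represses through p21 and the DREAM complex, a repressor of mitotic genes, were listed because Cdkn1a itself could not be read. Of 17 measured, 10 were positive and 7 negative with a median of 0.02, and 0 passed limma. Cdk1, the mitotic kinase gene, measured 995, 884 and 743 in the untreated and 942, 765 and 716 in the tamoxifen samples, with overlap and a log2 fold change of -0.13 ± 0.10 (SE). Plk1, a second mitotic kinase gene, had 0.04 ± 0.12 (SE). The only one with an unadjusted p under 0.05 was Kif23, a kinesin of cell division, at 0.15 (named after its value was seen). Ccnb1 is not listed in the table used here.

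Of the neighbours and relatives of Cdkn2a, Cdkn2b, the adjoining p15 gene, had a log2 fold change of 0.06 ± 0.06 (SE) and Mtap, a metabolic gene nearby, -0.19 ± 0.11 (SE). Mtap measured 1022, 841 and 753 in the untreated and 912, 707 and 696 in the tamoxifen samples, and its groups overlapped. The INK4 inhibitors Cdkn2c and Cdkn2d had 0.10 and 0.05. Of 11 genes in this list 8 were positive with a median of 0.05, 0 passed limma, and 1, the T-box repressor Tbx3 (-0.19, named after its value was seen), had an unadjusted p under 0.05.

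Interferon-stimulated genes, which broken DNA in the cytosol can raise, had a median of -0.01 with 5 of 12 positive and 0 past limma. Ifit1 (0.04) was dim, with means of 41.1 and 42.0. An unadjusted p under 0.05 was seen upward for the RNA sensor gene Ddx58 (0.50, limma adjusted p = 0.506) and downward for Ifit2 (-0.33, limma adjusted p = 0.671), both named after their values were seen. Isg15 is listed only with a second symbol and has no value here.

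**Figure D4:**
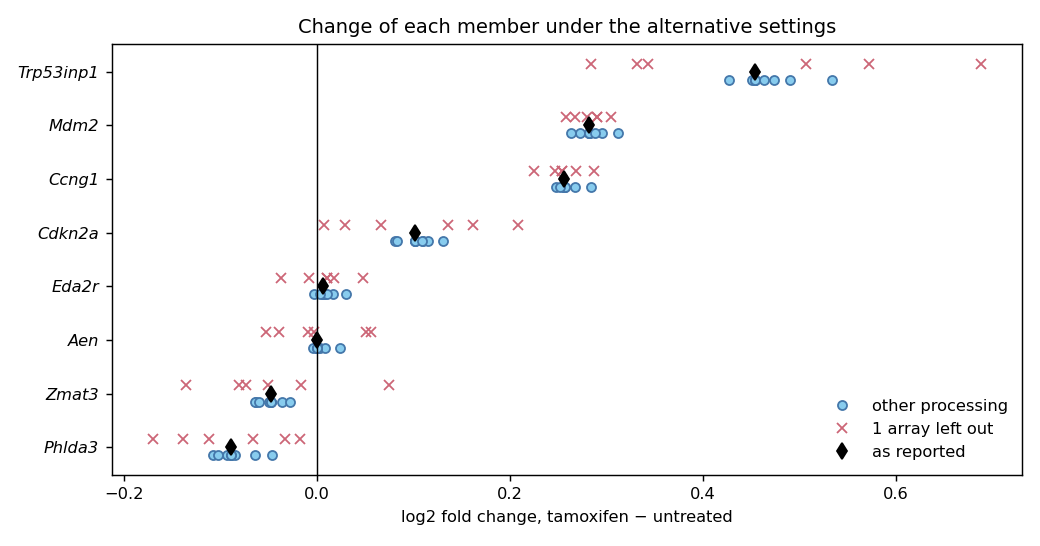
Log2 fold change of each member as reported (diamond), with 1 array left out (crosses) and under the other processing settings (circles). The values of Mdm2 (0.26 to 0.31) and Ccng1 (0.22 to 0.29) stay in a narrow range right of 0, Trp53inp1 runs from 0.28 to 0.69, and Aen, Eda2r and Zmat3 have values on both sides of 0.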

How the data were processed

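Per the labels' protocols, total RNA of 6 samples was extracted with TRIZOL, purified on columns and labelled with biotin for arrays. The deposited values are linear intensity values per probe set, summarised by the authors; their background correction and normalization are not given in the sources used here. Intensities were turned into log2(value + 16), quantile normalised, and fitted with limma 3.58.1 in R 4.3.3 (lmFit, eBayes). Two-sided p-values were adjusted by Benjamini-Hochberg over 34760 probe sets, with 0.05 as the threshold. Controls are unmarked in the files and were kept. The gene table gave 21640 probe sets 1 symbol, 1321 several, and did not name 11799. A probe set with several symbols named no gene. Overlap of groups was judged on normalised values. The number of arrays limits the precision. The steps were tested on simulated data, in which every added change was larger than the fold change of any member. The simulation therefore does not show how often changes of the members' size would pass.

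The members and lists were chosen with earlier results of these data known. Named genes were all members, Foxo1 and 30 listed pathway genes whatever their result, of which Bax, Ccnb1 and Isg15 have no value; other genes are marked in the text as named after their values were seen. Alternatives were a replicate block, each array left out, cyclic loess, a common median, no further normalization, dim probe sets left out, a robust eBayes with an intensity trend, weights per array, probe sets averaged per gene, and pseudocounts of 1 and 64. The replicate numbers were not taken as pairs, since the labels do not say that they mark pairs. Deviations of same-numbered samples correlated at 0.256, 0.0547 and 0.302, and those of differently numbered samples at -0.420 to 0.248. These values do not settle whether the samples are paired. Figures used matplotlib 3.10.9.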

Additional observations from a re-analysis of the deposited data

How the results depend on the processing

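With limma 0 of the members fitted, and 0 genes of the 7 related lists, passed under any of the 16 alternatives, and the lowest adjusted p of a member was 0.158, for Mdm2 with probe sets averaged per gene. Mdm2, Ccng1, Trp53inp1 and Cdkn2a stayed positive and Phlda3 negative wherever they were fitted. For Mdm2 and Ccng1 the lack of overlap fixes this direction in the quantile-normalised fits, but not under cyclic loess or a common median. Signs turned for Aen with array weights (-0.0039), Eda2r with no further normalization (-0.0028), Mdm4 with a common median (0.019), no further normalization (0.0029) and array weights (0.012), Chek2 with array weights (-0.035), and Bbc3 with no further normalization (-9.7e-05) and array weights (-0.039), and the cause was not tested. With 1 array left out, Aen ran from -0.053 to 0.056, Eda2r from -0.037 to 0.047, Zmat3 from -0.135 to 0.074, Mdm4 from -0.110 to 0.084, Ppm1d from -0.097 to 0.018, Atm from -0.232 to 0.045, Chek2 from -0.105 to 0.129, Plk2 from -0.085 to 0.0026, Bbc3 from -0.064 to 0.055, Perp from -0.113 to 0.023, Polk from -0.120 to 0.140, Plk1 from -0.059 to 0.134, Cdkn2c from -0.025 to 0.218 and Ifit1 from -0.042 to 0.098.

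Over all probe sets the count of calls was 20, and it was 0 to 6 with 1 array left out (6 without untreated 1, 2 without tamoxifen 1 and 0 without each of the others, where limma gave 1360 to 2218 at an unadjusted p under 0.05). It was 3 with a common median, 12 with no further normalization, 12 with a trend and robust eBayes, 11 with a pseudocount of 1, 46 with dim probe sets left out, 39 with array weights and 73 with probe sets averaged per gene. Upward calls were 65% of the total, and 83.3% with no further normalization. With the replicate block limma called 0, with 2525 at an unadjusted p under 0.05, beside 1775 without it. Of the 8 members, 3 had an unadjusted p under 0.05 with the block, beside 2 without it, and Trp53inp1 had a limma adjusted p of 0.301. The count was also 3 without tamoxifen 1, with a common median, with no further normalization and with array weights. In each of these the third member was Trp53inp1, beside Mdm2 and Ccng1. It was 2 under the other alternatives. Foxo1 kept its direction in every fit and lost its call under the block (adjusted p = 0.0936) and with a common median (0.05003). Whether the numbers mark shared cultures is not given. Without dim probe sets the members' median was 0.26 over 5 genes, since Phlda3, Zmat3 and Eda2r were not tested. Dim members limit what can be read, since signal over background is not given.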
